A study of Mus musculus with 34 samples.

Results

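Adipoq, Plin1, Cfd, Cidec, Retn, Fabp4, Pparg and Lep are genes that fat cells express, and they were read in every skeletal muscle library as a measure of the fat that each sample held. They were chosen by gene symbol, and all 8 of 8 were found among the 23011 genes of the count table. The libraries were made from total RNA of female mice, from the soleus (a slow muscle of posture) and from the plantaris (a fast muscle that lies next to it), at 24 months (aged) or 6 months (young). Some mice did PoWeR (progressive weighted wheel running): they ran at will for 8 weeks on a wheel that was loaded step by step, and the others were sedentary mice of the same age. All mice were fasted overnight before tissue was taken, and the wheels of the PoWeR mice had been locked for 24 h. The 34 libraries form 8 groups: 5 each of aged sedentary soleus and aged sedentary plantaris, and 4 each of aged PoWeR soleus, aged PoWeR plantaris, young sedentary soleus, young PoWeR soleus and the sedentary and PoWeR libraries labelled young plantaris. The labels give no genotype or strain. They also leave unsaid whether replicates are different mice, and each p-value covers the variation among these samples, which may be technical. Titles of many young libraries join numbers, and some numbers recur between young soleus and labelled young plantaris titles. The labels do not say whether such numbers name pooled or shared mice, and the tests treat these libraries as independent. The titles of the aged plantaris libraries name soleus while their source field names plantaris, which was followed. Replicate numbers of aged libraries are taken from their titles, and young libraries are numbered 1 to 4 in order of deposition.

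White fat cells store triglyceride in a single large lipid droplet and secrete hormones and other proteins, the adipokines, into the blood. In skeletal muscle such cells lie between the fibres and along the outer sheath, where they can arise from fibro-adipogenic progenitors, the resident connective tissue cells. Of the 8 genes, Adipoq (adiponectin), Lep (leptin), Retn (resistin) and Cfd (adipsin, complement factor D) encode secreted proteins, Plin1 (perilipin 1) and Cidec encode proteins of the lipid droplet surface, Fabp4 encodes a fatty acid carrier, and Pparg encodes PPAR gamma, the nuclear receptor that drives fat cell formation. Fabp4 is also made by capillary endothelium, and Pparg is not confined to fat cells. In RNA from whole muscle, fewer fat cells and less RNA per fat cell cannot be told apart.

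Fat cell genes are textbook targets of the C/EBP factors and of PPAR gamma, so the sequence around their start sites was read. RefSeq (GRCm38.p6) gave a window of 300 bases, 250 before the start site and 50 after it, for 7 of the 8 genes, 10 windows in all, with 3 for Pparg and 2 for Cidec. Fabp4 had no entry. The windows below are those of the 2 hormones adiponectin and leptin, of perilipin 1, and of the most downstream start site of Pparg. They were chosen because they hold the CCAAT or C/EBP letters. All run 5′ to 3′ on the strand of the gene. Capitals mark letters found on either strand. These are CCAAT, the C/EBP-type letters TTGCNNAA, and TATAAA with its variant that ends in G.
Adipoq, chr16:23146286-23146585, plus strand: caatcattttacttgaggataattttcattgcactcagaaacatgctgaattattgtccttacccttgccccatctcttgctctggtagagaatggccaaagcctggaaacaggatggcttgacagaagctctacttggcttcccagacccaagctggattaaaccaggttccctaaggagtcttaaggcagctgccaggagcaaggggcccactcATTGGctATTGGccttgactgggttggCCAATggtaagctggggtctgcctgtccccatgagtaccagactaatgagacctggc
Lep, chr6:29059971-29060270, plus strand: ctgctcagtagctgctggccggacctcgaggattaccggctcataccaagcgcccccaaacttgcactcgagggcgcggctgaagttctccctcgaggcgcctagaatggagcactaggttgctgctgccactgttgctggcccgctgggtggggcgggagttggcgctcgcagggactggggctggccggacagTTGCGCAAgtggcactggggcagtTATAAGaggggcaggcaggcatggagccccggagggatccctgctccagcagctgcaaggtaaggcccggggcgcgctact
Plin1, chr7:79732727-79733026, minus strand: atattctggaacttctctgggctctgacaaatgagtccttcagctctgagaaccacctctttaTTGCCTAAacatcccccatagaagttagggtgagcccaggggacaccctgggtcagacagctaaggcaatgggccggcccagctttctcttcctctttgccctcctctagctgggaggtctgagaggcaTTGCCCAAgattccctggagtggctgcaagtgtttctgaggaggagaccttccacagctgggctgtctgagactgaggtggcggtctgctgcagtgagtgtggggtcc
Pparg, chr6:115421816-115422115, plus strand: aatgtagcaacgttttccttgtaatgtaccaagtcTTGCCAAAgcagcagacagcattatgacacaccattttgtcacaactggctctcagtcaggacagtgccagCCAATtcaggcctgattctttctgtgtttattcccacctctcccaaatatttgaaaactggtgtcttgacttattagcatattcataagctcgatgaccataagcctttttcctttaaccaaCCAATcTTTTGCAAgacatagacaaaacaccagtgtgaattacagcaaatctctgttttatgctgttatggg
The letters TTGCNNAA were found in 4 of the 10 windows, and in 10.8% of all 32851 windows of the same length. In Lep they read TTGCGCAA, which is its own reverse complement, with the first base at -55 from the start site, followed by TATAAG at -31. Plin1 held them at -187 and -58, and the Pparg window at -215 and -16. The other match was in the second Cidec window, at -198. CCAAT was found in 3 of the 10 windows, against 37.4% of all. Those were Adipoq, with matches at -34, -27 and -7, the Pparg window shown, with matches at -144 and -22, and a further Pparg window. A direct repeat of AGGTCA with 1 base between the copies, of the kind PPAR gamma is known to bind, was in 0 of the 10 and in 0.0396% of all. None of the CCAAT and TTGCNNAA matches shown overlap. A match describes these letters only, and its use as a binding site was not tested.

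Each library summed to between 15237626 and 26250461 expected counts, and replicates of a group differed by more than counting error. Levels are given as CPM, counts per 1000000 after TMM scaling of library sizes in edgeR. The myosin genes were read as a check of the muscle labels. The libraries labelled young plantaris had 20099 to 32738 CPM of Myh7, the slow myosin, and 14.4 to 41.3 CPM of Myh4, the fastest. The aged plantaris libraries had 59.0 to 1743 and 13130 to 72476 CPM, and the aged soleus libraries had 20252 to 30458 and 13.9 to 1596 CPM. The libraries labelled young plantaris thus go against their label and have the myosins of soleus. They are kept in the group of their label and are always named as such. Among all genes, some libraries stood far from their replicates. By a chi-square per degree of freedom of their counts, sedentary replicate 3 of the libraries labelled young plantaris lay at 159 to 181 from its group, young soleus PoWeR replicate 3 at 77.8 to 129, aged plantaris PoWeR replicate 12 at 54.2 to 103 and aged plantaris sedentary replicate 16 at 52.4 to 61. PoWeR replicate 3 of the libraries labelled young plantaris lay at 69.7 to 114, and aged plantaris PoWeR replicate 15 at 54.2 to 93.7. The measure thus does not set aged plantaris PoWeR replicate 12 apart from replicate 15.

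For 3 of the 4 secreted adipokines a single aged plantaris library, PoWeR replicate 12, was the highest of all 34. Adipoq (chromosome 16, 23146536 to 23158028, mm10) had 35.1, 23.1, 14.7, 21.8 and 5.71 CPM in aged sedentary soleus replicates 12 to 16, and 22.4, 23.6, 21.1 and 9.82 CPM in aged PoWeR soleus replicates 10, 12, 14 and 15. In aged plantaris it had 10.9, 1.18, 4.33, 15.2 and 1.88 CPM in the sedentary libraries and 10.7, 91.5, 1.88 and 3.67 CPM in the PoWeR libraries, in the same order of replicates. PoWeR replicate 12 was high and every other plantaris library lay at or below 15.2 CPM, so that the plantaris groups overlapped. In young soleus, replicates 1 to 4 had 10.6, 10.3, 23.4 and 23.8 CPM sedentary and 12.1, 9.89, 12.6 and 9.77 CPM with PoWeR. The libraries labelled young plantaris had 9.26, 18.1, 10.5 and 15 CPM sedentary and 10.3, 8.10, 12.9 and 8.82 CPM with PoWeR. The young PoWeR groups were narrow and lay within the lower part of their sedentary groups or just below it.

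Cfd (chromosome 10, 79890853 to 79892655) was the most abundant of the secreted markers. Aged soleus had 116, 81.2, 65.7, 58.2 and 18.5 CPM sedentary and 89.4, 126, 74.2 and 41.5 CPM with PoWeR. Aged plantaris had 42.2, 10.1, 27.9, 51.8 and 6.02 CPM sedentary and 48.3, 515, 16.5 and 21.7 CPM with PoWeR. Sedentary replicate 16 was the lowest of its group in both muscles, and PoWeR replicate 12 the highest in both. Young soleus ran from 35.3 to 81.2 CPM sedentary and from 28.3 to 59.7 CPM with PoWeR. The libraries labelled young plantaris ran from 18.2 to 74.2 CPM sedentary and from 27.7 to 47.4 CPM with PoWeR, with overlap in each pair of groups.

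Retn (chromosome 8, 3655770 to 3660110) and Lep (chromosome 6, 29060220 to 29073877) were scarce. Retn had 11.2, 6.78, 5.33, 7.20 and 1.64 CPM in aged sedentary soleus and 7.58, 7.46, 11.5 and 2.79 CPM in aged PoWeR soleus. In aged plantaris it had 2.79, 0.706, 1.38, 5.47 and 0.752 CPM sedentary and 5.87, 40.6, 2.23 and 1.35 CPM with PoWeR, so only PoWeR replicate 12 lay above the soleus values. The young groups ran from 1.68 to 12.7 CPM. Lep had 11.6, 6.35, 6.05, 8.16 and 1.64 CPM in aged sedentary soleus and 3.91, 3.14, 5.68 and 3.85 CPM in aged PoWeR soleus. In aged plantaris it had 3.11, 0.118, 1.92, 4.74 and 0.251 CPM sedentary and 2.7, 7.80, 0.0697 and 0.377 CPM with PoWeR. The lowest of these, PoWeR replicate 14, rests on 1 count. Leptin in PoWeR replicate 12 was the highest of the plantaris values but lay below the 11.6 and 8.16 CPM of 2 aged soleus libraries. Young soleus had 6.27, 3.55, 4.51 and 10.5 CPM of Lep sedentary and 1.68, 3.81, 4.58 and 1.63 CPM with PoWeR. The libraries labelled young plantaris had 4.54, 4.97, 6.20 and 5.59 CPM sedentary and 2.30, 2.99, 3.48 and 1.07 CPM with PoWeR. All 4 of these PoWeR libraries lay below all 4 of their sedentary libraries, while the young soleus groups overlapped.

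The lipid droplet genes were also highest in that plantaris library. Plin1 (chromosome 7, 79720218 to 79732903), whose protein guards the droplet against lipases, had 24.8, 13.4, 10.4, 20.2 and 3.73 CPM in aged sedentary soleus and 14.9, 14, 16 and 7.81 CPM in aged PoWeR soleus. In aged plantaris it had 5.21, 1.41, 4.69, 10.2 and 1.76 CPM sedentary and 3.95, 43.5, 1.12 and 2.48 CPM with PoWeR. Again 1 plantaris library was high, and the other 3 PoWeR libraries lay within or just below the range of the sedentary ones. Young soleus ran from 4.93 to 21.2 CPM sedentary and from 7.78 to 12.4 CPM with PoWeR, and the libraries labelled young plantaris from 8.53 to 16.8 and from 8.56 to 13.6 CPM. Cidec (chromosome 6, 113424634 to 113435760), which promotes the fusion of droplets into larger ones, had 30.9, 23.0, 18.8, 15.1 and 3.33 CPM in aged sedentary soleus and 13.4, 22.8, 10.4 and 8.70 CPM in aged PoWeR soleus. Its aged plantaris values were 15.3, 2.94, 4.63, 11.3 and 0.690 CPM sedentary and 5.21, 85.9, 2.09 and 3.61 CPM with PoWeR. PoWeR replicate 12 was again far above the other plantaris libraries, whose groups otherwise overlapped. The 4 young groups were narrow for Cidec, with all 16 libraries between 7.22 and 13.2 CPM.

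Fabp4 (chromosome 3, 10204088 to 10208576) was abundant and varied less. It had 245, 133, 185, 169 and 144 CPM in aged sedentary soleus and 127, 201, 164 and 152 CPM in aged PoWeR soleus. Aged plantaris had 120, 87.0, 84.6, 94.2 and 59.1 CPM sedentary and 94.5, 392, 85.3 and 121 CPM with PoWeR. All aged soleus libraries lay above all aged plantaris libraries except PoWeR replicate 12. Young soleus had 136, 142, 160 and 144 CPM sedentary and 83.9, 71.6, 71.2 and 106 CPM with PoWeR, with no overlap. The libraries labelled young plantaris had 119, 90.0, 89.0 and 117 CPM sedentary and 78.1, 55.8, 81.2 and 68.3 CPM with PoWeR, also with no overlap.

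Pparg (chromosome 6, 115360951 to 115490399) was low and even, from 1.38 to 5.88 CPM over the 34 libraries. Aged soleus had 4.15, 3.73, 3.33, 2.58 and 3.5 CPM sedentary and 3.34, 3.20, 3.78 and 4.80 CPM with PoWeR. Aged plantaris had 3.17, 2.71, 2.04, 1.60 and 1.38 CPM sedentary and 2.34, 3.53, 1.39 and 2.97 CPM with PoWeR. In the plantaris library that was high for the other markers, Pparg was the highest of the aged plantaris values but lay within the soleus range. The highest Pparg value of all, 5.88 CPM, was in young sedentary soleus replicate 3.

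**Figure D1:**
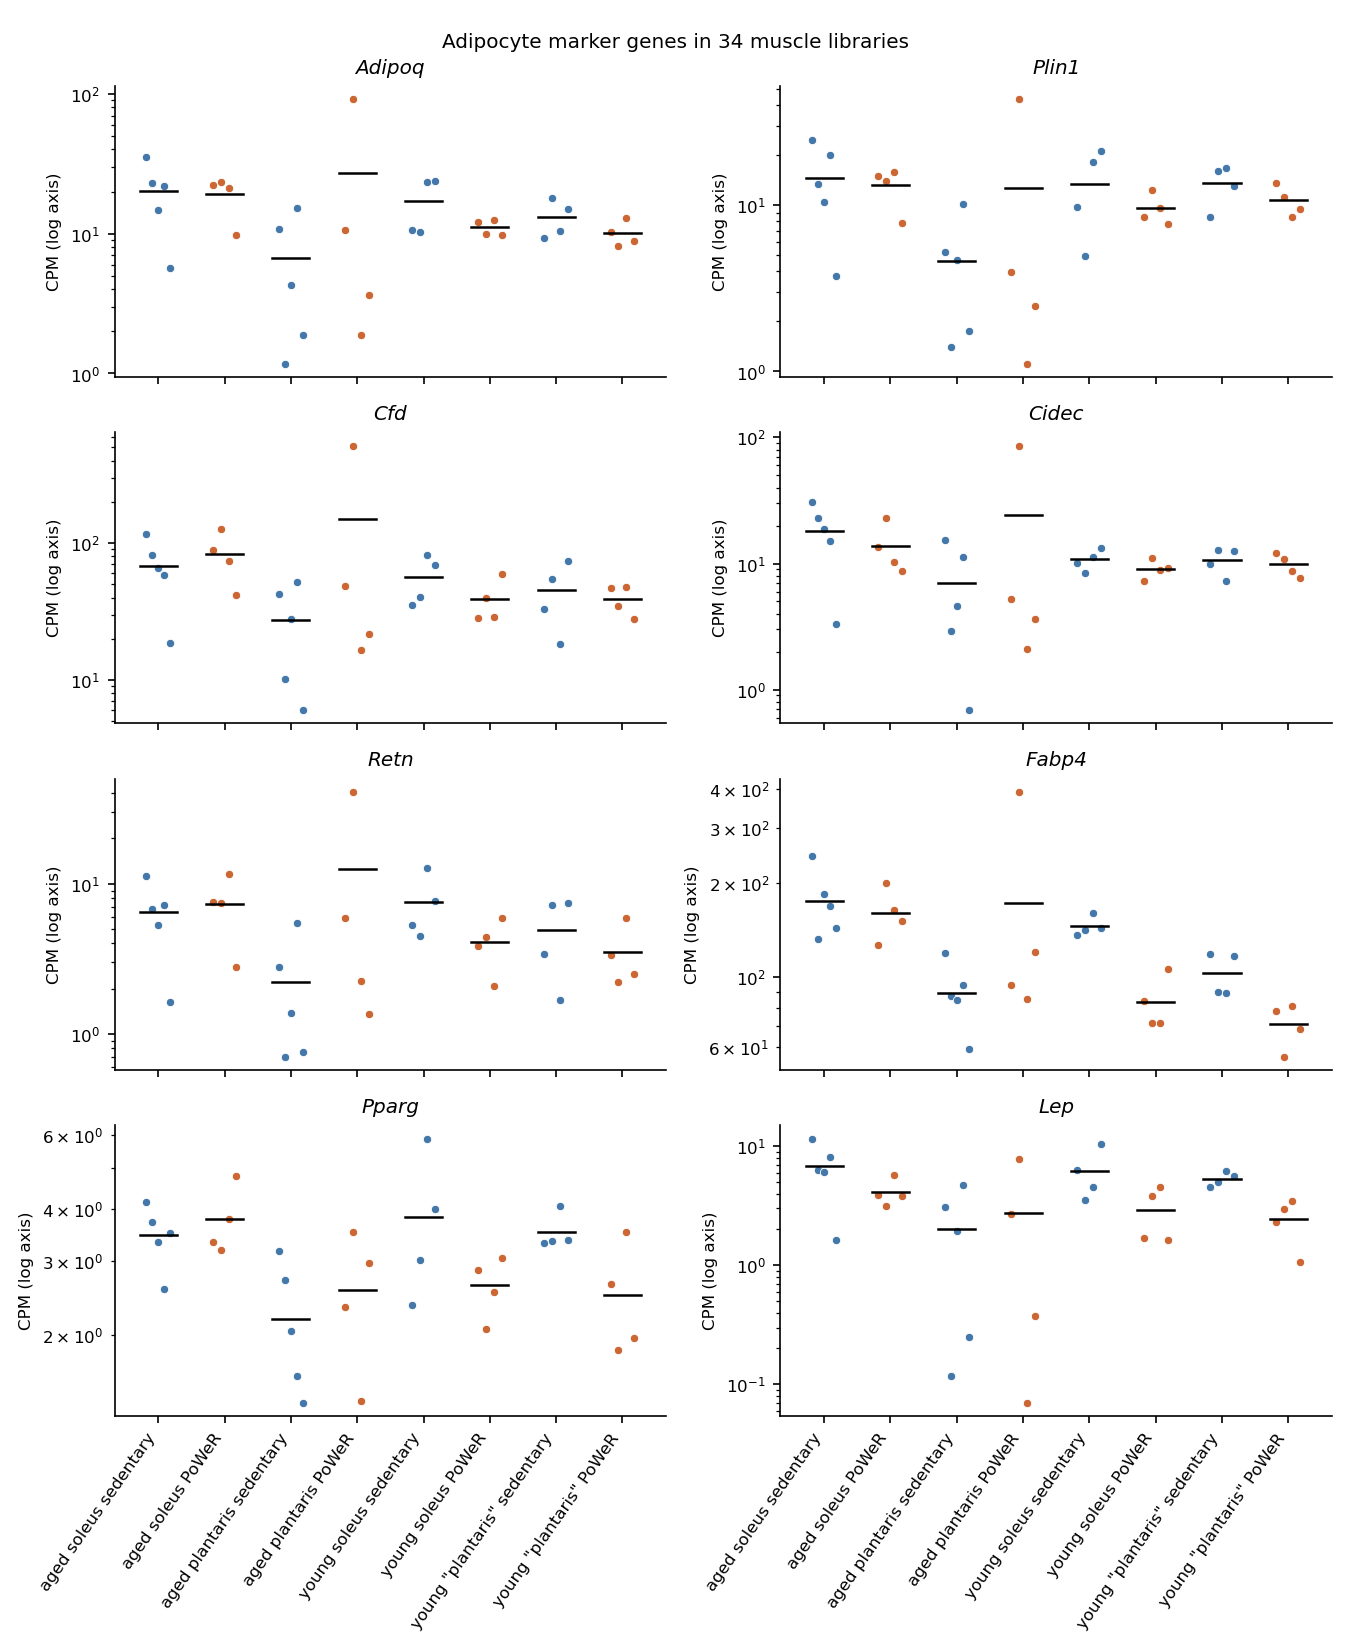
CPM (log axis) of the 8 adipocyte markers in each of the 34 libraries by group, with sedentary libraries in blue and PoWeR libraries in orange. Black lines are group means, and the groups named young "plantaris" are the libraries labelled young plantaris. In the panels of Adipoq, Plin1, Cfd, Cidec, Retn and Fabp4 the aged plantaris PoWeR group has 1 library far above its others, at 91.5 CPM for Adipoq and 515 CPM for Cfd, while Pparg stays between 1.38 and 5.88 CPM throughout.

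Ordered by group median, an aged soleus group stood first or second for all 8 markers. For Plin1 the sedentary libraries labelled young plantaris stood first (14.6 CPM). An aged plantaris group stood last for every marker but Fabp4, where the PoWeR libraries labelled young plantaris did (73.2 CPM). For Adipoq the medians fell in the order aged sedentary soleus (21.8 CPM), aged PoWeR soleus (21.7), young sedentary soleus (17), the sedentary libraries labelled young plantaris (12.8), young PoWeR soleus (11), the PoWeR libraries labelled young plantaris (9.58), aged PoWeR plantaris (7.16) and aged sedentary plantaris (4.33). Neighbours in the order overlapped in 7 of 7 pairs of groups for every marker but Pparg, where 6 of 7 did. The order is therefore not resolved step by step. Group means were also divided by the length of the union of all annotated exons of the gene. Per kilobase of that length, Cfd was the highest in every group, followed by Fabp4, Adipoq and Cidec. For Fabp4 the union is 4489 bases and spans the whole gene. A shorter transcript would raise its value, so its place in this order is not resolved. In aged sedentary soleus the means by this length were 73.7 CPM per kilobase for Cfd, 39.0 for Fabp4, 14.5 for Adipoq and 9.82 for Cidec. Retn was at 4.08, Plin1 at 3.12, Lep at 2.01 and Pparg at 1.17.

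Replicates of a group lay farther apart for 6 of the 8 markers than for nearly all other genes. The SD within groups on the log2(CPM + 0.5) scale was 1.09 for Adipoq, 0.99 for Plin1, 1.10 for Cfd, 1.11 for Cidec, 1.01 for Retn and 0.97 for Lep, against a median of 0.26 over 13019 genes with a mean of at least 1 CPM. Each of these 6 SDs exceeded those of 99.6 to 99.8% of genes. Fabp4 (0.43, above 86.2% of genes) and Pparg (0.34, above 70.5%) were steadier. Aged plantaris sedentary replicate 16 and PoWeR replicate 12 were among the libraries that lay far from their replicates over all genes. Without them the 6 SDs were 0.69 to 0.82, still above at least 98.7% of genes, and that of Fabp4 was 0.26 (above 51.9%). The spread was not equal among groups. The SD of Adipoq was 2.32 in aged PoWeR plantaris, 1.39 in aged sedentary plantaris and 0.95 in aged sedentary soleus. It was 0.66 in young sedentary soleus, 0.58 in aged PoWeR soleus, and 0.43 sedentary and 0.28 with PoWeR in the libraries labelled young plantaris. The smallest was 0.18 in young PoWeR soleus, where 30.1% of genes had a smaller SD. The part of any pooling of mice in the spread was not tested.

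The markers varied together from library to library. Over the 34 libraries, which the genes share, deviations from the group means correlated with r of 0.73 to 0.94 in the 15 pairs among Adipoq, Plin1, Cfd, Cidec, Retn and Lep (median 0.86). Pairs with Fabp4 had a median r of 0.71, and pairs with Pparg 0.36. Without those 2 aged plantaris libraries these medians were 0.80, 0.40 and 0.06. Fabp4 also followed the mean of 8 endothelial genes (r = 0.46, and 0.60 without the 2 libraries), whereas the r of Adipoq with those genes was 0.05 and -0.08. These correlations describe the libraries and have no test.

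The genes whose deviations were most like the mean of the 8 markers, of 13011 ranked, were Cdo1 (r = 0.95), Tmem45b (0.95), Prkar2b (0.94), Cyp2f2 (0.94), Scd1 (0.94), Cebpa (0.93), Pck1 (0.93), Trf (0.93), Cyp2e1 (0.92) and Pde3b (0.91). Several have known roles in metabolism: Cdo1 is cysteine dioxygenase, Scd1 a fatty acid desaturase, Pck1 the enzyme of glyceroneogenesis in fat, Pde3b the phosphodiesterase through which insulin restrains lipolysis, and Cebpa the factor that acts with PPAR gamma in fat cells. Of the 10, 9 were also among the first 10 without those 2 aged plantaris libraries. By Spearman correlation without subtracting group means, 3 were: Tmem45b, Prkar2b and Pck1. All 10 were highest in aged plantaris PoWeR replicate 12, for example Pck1 with 68.0 CPM there and 0.837 to 11.6 CPM in the other aged plantaris libraries. That library weighs heavily in the ranking, so this is partly fixed by how the 10 were chosen.

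Aged plantaris PoWeR replicate 12 enters several of the comparisons. Its values were 22.9 times the median of the other 8 aged plantaris libraries for Adipoq, 22.5 for Retn, 20.9 for Cidec, 20.8 for Cfd and 13.5 for Plin1. Lep was at 6.78 times, Fabp4 at 4.33 and Pparg at 1.61. The library was the highest of the 9 for 8 of 8 markers, and for 18.5% of 12843 genes with a mean of at least 1 CPM in aged plantaris. A ratio of at least 5 was reached by 6 of the 8 markers and by 0.655% of those genes.

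Other tissue genes were also high in that library. Schwann cell genes, which myelinate the nerve, were highest there in 8 of 8, with a median ratio of 7.14 and a summed level of 269 CPM against 24.1 to 58.3 in the other 8 libraries. Macrophage genes were highest in 6 of 7 (median ratio 2.65) and fibro-adipogenic progenitor genes in 8 of 9 (median ratio 2.25; summed 955 CPM against 195 to 526). Red blood cell genes were highest in 3 of 5 (median ratio 2.29) and endothelial genes in 2 of 8 (median ratio 1.32). The fast myosin Myh4 was the lowest of the aged plantaris libraries, at 13130 CPM against 32150 to 72476. Among related fat genes, the other adipokines and surface genes had a median ratio of 4.60, lipogenesis genes 1.97 and fat storage and lipolysis genes 1.16, the last with Pck1 at 18.1. Other aged plantaris libraries held genes of further tissues. The keratinocyte gene Krt5 was at 15.1 and 43.8 CPM in sedentary replicates 12 and 13, and at 0 in PoWeR replicate 12. Summed lymphoid genes ran from 9.41 to 823 CPM in the sedentary group and from 13.4 to 99.9 CPM in the PoWeR group. The part of these other tissues in the marker values was not tested.

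**Figure D2:**
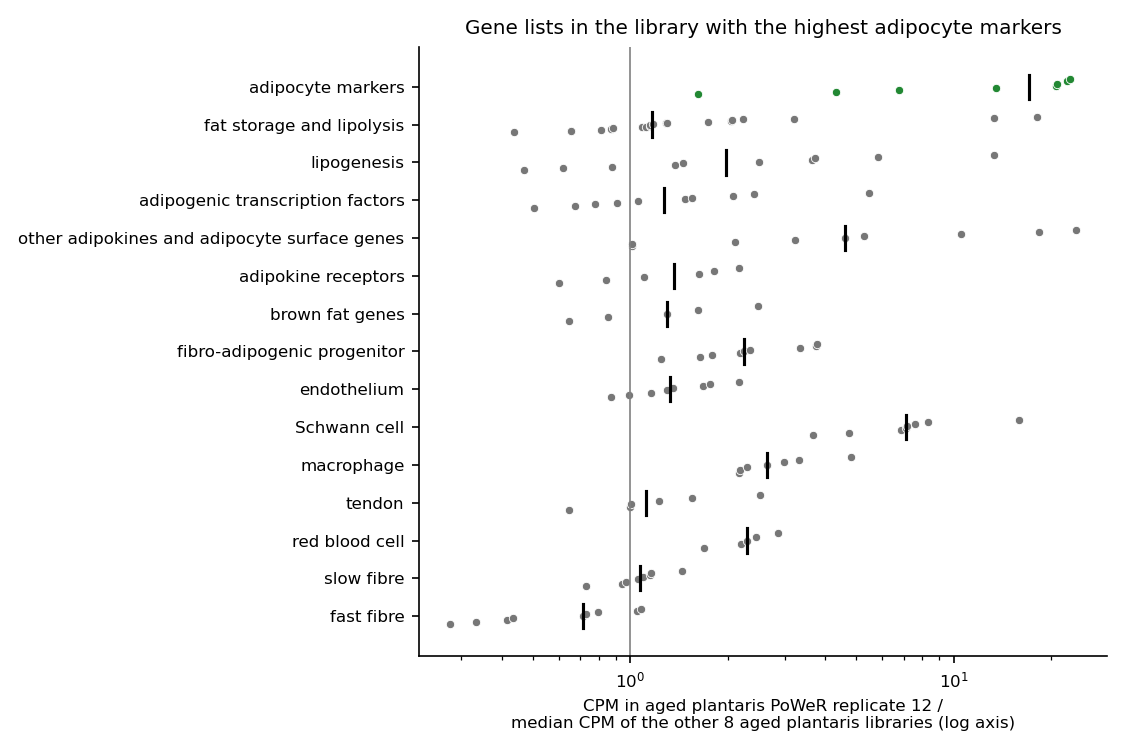
Ratio of the CPM in aged plantaris PoWeR replicate 12 to the median CPM of the other 8 aged plantaris libraries (log axis), 1 point per gene, with the adipocyte markers in green, other gene lists in grey and the median of each list as a black bar. The markers run from 1.61 to 22.9 with a median of 17.2, beside a median of 7.14 for Schwann cell genes, which run from 3.67 to 15.9, and of 1.32 for the endothelial list. The lymphoid and keratinocyte lists are not drawn.

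In aged plantaris, whose training response was compared first, 0 of the 8 markers passed edgeR's quasi-likelihood test (adjusted p under 0.05 by Benjamini-Hochberg over all genes tested), beside 0.0262% of 15280 genes. All 8 log2 fold changes were above 0, with a median of 1.67 against 0.01 over all genes tested. They were 2.53 ± 0.92 (SE) for Retn, 2.48 ± 0.95 for Cfd, 2.05 ± 0.95 for Adipoq, 1.84 ± 0.96 for Cidec, 1.5 ± 0.85 for Plin1, 0.97 ± 0.38 for Fabp4, 0.47 ± 0.93 for Lep and 0.24 ± 0.30 for Pparg. The smallest adjusted p by edgeR was 0.368, for Retn, and 4 of the 8 had an unadjusted p under 0.05, as had 9.86% of genes tested. These values rest on PoWeR replicate 12. Without it Retn was at 0.50, Cfd at 0.06, Adipoq at -0.30, Plin1 at -0.88, Cidec at -0.93, Lep at -0.93, Fabp4 at 0.16 and Pparg at 0.02. Without that library and sedentary replicate 16, 2 of the 8 were above 0 and the median was -0.37. DESeq2 and limma also called 0 of the 8.

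The related lists in aged plantaris had 0 members past the test. Among lipogenesis genes the smallest p values were those of Fasn, fatty acid synthase (1.69 ± 0.47; edgeR adjusted p = 0.231), and Scd1 (2.62 ± 0.74; adjusted p = 0.261). Adig, a fat cell gene of the other adipokine list, was at 1.75 ± 0.68, and the list's median was 0.65. Schwann cell genes had a median of 1.56 and fibro-adipogenic progenitor genes of 0.35 in the same comparison. Endothelial genes had a median of 0.55.

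In aged soleus 0 of the 8 markers passed, beside 0.857% of 14934 genes, and 0 had an unadjusted p under 0.05. DESeq2 and limma also called 0. The median log2 fold change was -0.11 against -0.0031 over all genes tested, with 3 of the 8 above 0. The largest in size was that of Lep, -0.72 ± 0.44 (SE; edgeR adjusted p = 0.549), and Adipoq was at -0.08 ± 0.41, Plin1 at -0.15 ± 0.46, Cidec at -0.41 ± 0.42, Cfd at 0.27 ± 0.44, Retn at 0.17 ± 0.46, Fabp4 at -0.14 ± 0.16 and Pparg at 0.11 ± 0.24. Every pair of groups overlapped. Sedentary replicate 12 was the highest of its group for all 8 markers, and without it the median was 0.16 with 6 of the 8 above 0.

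Of the genes that make fatty acids, 3 of 10 rose in aged soleus, beside 0.857% of 14934 genes called in either direction. Elovl6, a fatty acid elongase, rose by 1.76 ± 0.41 (SE; edgeR adjusted p = 0.0451), Fasn by 1.68 ± 0.26 and Srebf1, the transcription factor that controls them, by 0.72 ± 0.15. All 10 members were above 0, with a median of 0.54. Of 20 fat storage and lipolysis genes 0 passed (median -0.10), and 0 passed among the adipogenic transcription factors, the other adipokines, the adipokine receptors and the brown fat genes. In the fat storage list Cd36, the fatty acid transporter, was at -0.40 ± 0.11 (SE; edgeR adjusted p = 0.0791).

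Young soleus was the comparison in which a marker changed with training. Fabp4 fell from 146 ± 10.4 CPM (SD, n = 4) to 83.2 ± 16.5 CPM (n = 4), with no overlap, as in 9.03% of genes in the lower direction. The log2 fold change was -0.78 ± 0.17 (SE; edgeR adjusted p = 0.0107). It was called in 8 of 8 fits with a library removed of these groups (adjusted p 0.00266 to 0.0467) and by DESeq2 and limma. That is 1 of 8 markers called, lower, in a comparison in which 12.9% of 14934 genes were called and 6.89% were lower, so the share is near the background. The other 7 log2 fold changes were also negative: Lep -1.04 ± 0.47 (edgeR adjusted p = 0.157), Retn -0.86 ± 0.50, Adipoq -0.59 ± 0.44, Pparg -0.52 ± 0.26, Cfd -0.50 ± 0.48, Plin1 -0.47 ± 0.48 and Cidec -0.21 ± 0.46. Their groups overlapped, and the median of the 8 was -0.55 against 0.04 over all genes tested.

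Endothelial genes were read beside Fabp4 in young soleus, since capillaries also express it. Of 8, Emcn (endomucin) fell by 0.69 (SE 0.22; edgeR adjusted p = 0.0421) and 7 did not pass, with a median of -0.31. Their summed level was 261 to 327 CPM in the sedentary and 223 to 288 CPM in the PoWeR libraries. The part of endothelium in the Fabp4 value was not tested. The counts called in each list of this paragraph stand beside 12.9% of 14934 genes called in young soleus, and 6.89% called lower. Of 20 fat storage and lipolysis genes 2 rose and 2 fell (list median -0.15). Plin4 (0.81 ± 0.19, SE) and the triglyceride synthesis enzyme Dgat2 (0.33 ± 0.10) rose, and Cidea, a relative of Cidec (-0.82 ± 0.22), and Mgll, the monoglyceride lipase (-0.51 ± 0.16), fell. Lipogenesis genes rose in 3 of 10: Elovl6 (1.35 ± 0.36), Fasn (1.01 ± 0.27) and the citrate lyase Acly (0.59 ± 0.17).

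The remaining lists in young soleus are read against the 12.9% of all genes called there. Of 9 other adipokines and surface genes tested, Angptl4, an inhibitor of lipoprotein lipase, fell by 2.33 (SE 0.51; edgeR adjusted p = 0.0126), and Rbp4, the retinol carrier, rose by 1.65 ± 0.48 (SE). Of 6 adipokine receptors Cdh13, which binds adiponectin, rose (0.46 ± 0.15). Of 5 brown fat genes tested, Cox8b fell (-0.88 ± 0.22). Among macrophage genes Mrc1 rose (1.2 ± 0.31), and of 10 adipogenic transcription factors 0 passed.

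In the libraries labelled young plantaris 0 of the 8 markers passed, beside 0.223% of 15280 genes, and 0 had an unadjusted p under 0.05. DESeq2 and limma also called 0. All 8 log2 fold changes were negative, with a median of -0.46. Fabp4 was at -0.56 ± 0.40 (SE; edgeR adjusted p = 0.617) and Lep at -1.13 ± 0.93 (adjusted p = 0.68). These 2 of the 8 had PoWeR libraries entirely below the sedentary ones, which 3.11% of genes tested also showed. The others ran from -0.12 ± 1.0 for Cidec to -0.51 ± 0.31 for Pparg. This fit shares its estimate of spread with aged plantaris, and its standard errors for Adipoq, Cfd, Cidec, Retn and Lep exceeded 0.9. Of these libraries 3 of 4 with PoWeR but 1 of 4 sedentary had under 0.7% of counts in an rRNA repeat gene. With a term for that share, added after seeing the data, Cfd was at 0.38, Retn at 0.28 and Cidec at 0.0090, while Fabp4 was at -0.43 and Lep at -1.07. The part of that share in the values was not tested further.

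**Figure D3:**
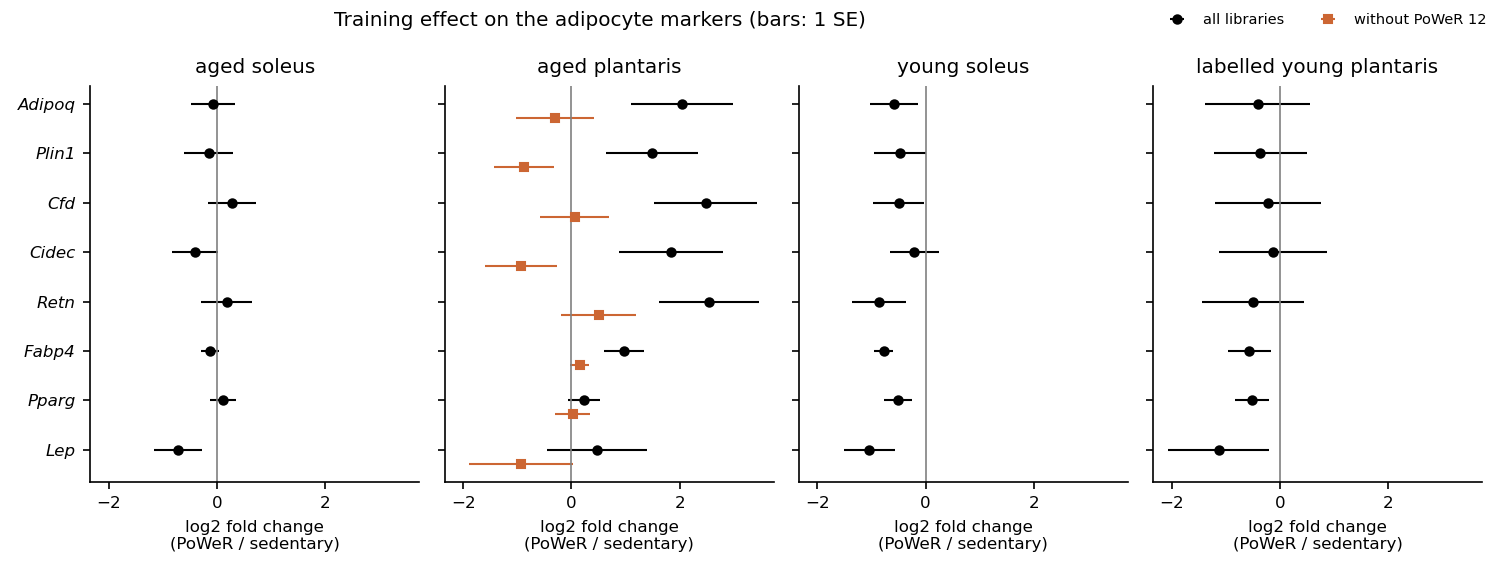
Log2 fold change of PoWeR over sedentary (horizontal axis) for the 8 markers in the 4 comparisons of training, with bars of 1 SE from edgeR. Black points use all libraries, and orange squares leave out aged plantaris PoWeR replicate 12. In aged plantaris Adipoq moves from 2.05 to -0.30 without that library, and in young soleus Fabp4 sits at -0.78 with the shortest bar of its panel.

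Whether training acted differently between muscles or ages was tested as an interaction, and 0 of the 8 markers passed either. The share of all genes called by edgeR was 0% in each, while 12% and 13.4% had an unadjusted p under 0.05. The soleus minus plantaris difference in aged mice ran from -2.36 ± 1.27 (SE) for Retn to -0.12 ± 0.39 for Pparg, with 0 of the 8 at an unadjusted p under 0.05. Without plantaris PoWeR replicate 12 it was 0.22 for Adipoq and 0.72 for Plin1. The aged minus young difference in soleus was 0.64 ± 0.24 for Fabp4 (edgeR adjusted p = 0.276), the 1 marker with an unadjusted p under 0.05, so the fall in young soleus was not shown to differ from the value of -0.14 ± 0.16 in aged soleus. DESeq2 and limma called 0 of the 8 in both.

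Age was compared in soleus. In sedentary soleus 0 of the 8 markers passed, beside 36.2% of 14934 genes, and 0 had an unadjusted p under 0.05. DESeq2 and limma also called 0. The largest was Cidec, at 0.80 ± 0.43 (SE; edgeR adjusted p = 0.16), with 18.2 ± 10.2 CPM (SD, n = 5) in aged and 10.8 ± 2.04 CPM (n = 4) in young libraries. It passed in 1 of 9 fits with a library removed, that without aged sedentary replicate 16 (1.07; adjusted p = 0.00476). Adipoq was at 0.28 ± 0.41, Lep at 0.17 ± 0.43 and Pparg at -0.10 ± 0.24. The median of the 8 was 0.23 with 6 above 0, and -0.06 without aged sedentary replicate 12.

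Other genes of fat handling were called at shares to be read against the 36.2% of all genes called between the ages. Of 20 fat storage and lipolysis genes 4 rose: the droplet proteins Plin4 (1.58 ± 0.19, SE) and Plin5 (0.93 ± 0.16), the lipase Pnpla2 (0.62 ± 0.11) and Cd36 (0.35 ± 0.11). Of 10 lipogenesis genes 6 were lower in aged soleus, led by Elovl6 (-2.49 ± 0.40) and Fasn (-2.04 ± 0.26), and Mlxipl was higher (1.41 ± 0.14). Of 6 adipokine receptors 4 fell, among them Adipor1 (-0.83 ± 0.09) and Lepr, the leptin receptor (-0.69 ± 0.25), and Cdh13 rose (0.54 ± 0.14).

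In PoWeR soleus Fabp4 was higher in aged than in young libraries, at 161 ± 30.7 against 83.2 ± 16.5 CPM (SD, n = 4 and 4). The log2 fold change was 0.95 ± 0.17 (SE; edgeR adjusted p = 0.000306), called in 8 of 8 fits with a library removed. That is 1 of 8 markers called, beside 37.9% of 14934 genes called and 19.7% called higher. This comparison shares its young PoWeR libraries with the training comparison in which Fabp4 fell. All 8 markers were above 0, with a median of 0.70, and Cfd (1.08 ± 0.48; edgeR adjusted p = 0.09) and Adipoq (0.79 ± 0.44; adjusted p = 0.17) passed when the fit held only these 2 groups. Fabp4 and Pparg (0.53 ± 0.26; adjusted p = 0.112) had no overlap between groups, as had 15.9% of genes tested in the higher direction. Endothelial genes were higher in 2 of 8, Gpihbp1 (0.85 ± 0.31) and Emcn (0.80 ± 0.22).

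Among aged sedentary libraries each marker had a higher mean in soleus than in plantaris. Of the 8, Fabp4 passed the test, with 175 ± 44.1 CPM (SD, n = 5) in soleus and 88.9 ± 21.8 CPM (n = 5) in plantaris, a log2 difference of 1.0 ± 0.37 (SE; edgeR adjusted p = 0.0482), and its groups did not overlap. The background was 32.9% of 14823 genes called, 17% called higher in soleus, and 13.1% with soleus entirely above plantaris. The call is weak: it was kept in 1 of 10 fits with a library removed, that without plantaris sedentary replicate 12, with adjusted p values of 0.0445 to 0.114 over these fits. The differences were 1.76 ± 0.88 for Lep, 1.67 ± 0.86 for Plin1, 1.61 ± 0.94 for Adipoq, 1.56 ± 0.89 for Retn, 1.41 ± 0.97 for Cidec, 1.32 ± 0.89 for Cfd and 0.68 ± 0.26 for Pparg (edgeR adjusted p = 0.0524). Pparg passed in 3 of 10 fits with a library removed, and in the fit with the library name as a block (0.72; edgeR adjusted p = 0.0353). The median of the 8 was 1.49, with all 8 above 0.

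Each aged soleus library has a plantaris library of the same name, although the labels do not say that both came from 1 mouse. For each of the 8 markers the soleus library was the higher in 8 of 9 such pairs, and the exception was PoWeR replicate 12 every time. The markers share these libraries, so the counts are not independent of each other. Such pairs were not counted over all genes, so the counts are not shown to be particular to the markers. In sedentary replicate 16, for example, Cidec had 3.33 CPM in soleus and 0.690 CPM in plantaris, both the lowest of their groups.

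**Figure D4:**
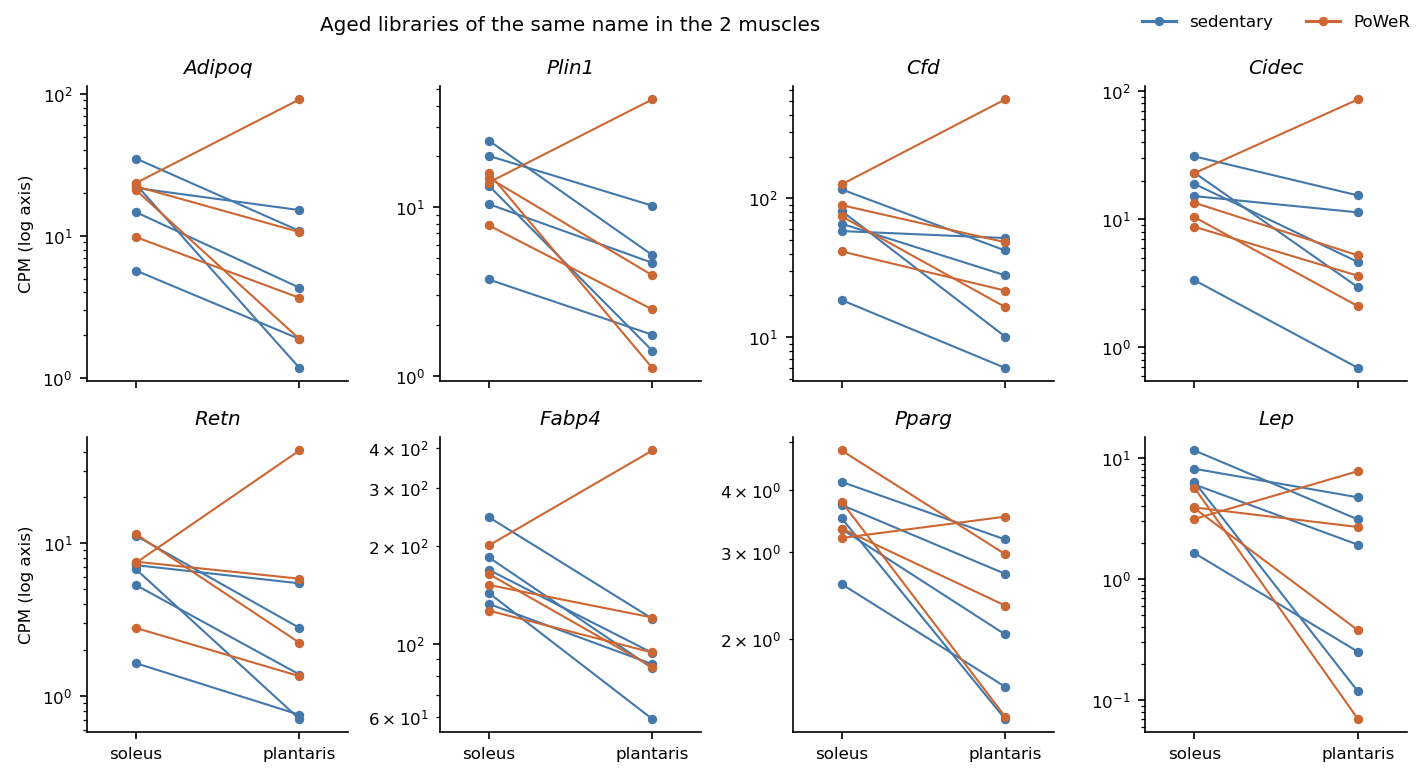
CPM (log axis) of each marker in the aged soleus and plantaris libraries of the same name, joined by a line, with sedentary pairs in blue and PoWeR pairs in orange. In each of the 8 panels 8 of the 9 lines descend from soleus to plantaris, and the 1 that climbs is PoWeR replicate 12.

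Among aged PoWeR libraries 0 of the 8 markers passed between soleus and plantaris, beside 22.5% of 14823 genes, with 0 at an unadjusted p under 0.05 and 0 by DESeq2 or limma. The differences ran from -0.89 ± 0.97 (SE) for Cfd to 0.57 ± 0.96 for Lep. Without plantaris PoWeR replicate 12 all 8 were above 0, and 2 passed: Plin1 (2.39; edgeR adjusted p = 0.027) and Fabp4 (0.71; adjusted p = 0.0315). With the library name as a block all 8 were also above 0, Adipoq at 0.84 and Cfd at 0.54, and 0 passed.

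Of 20 fat storage and lipolysis genes in aged sedentary libraries, 11 were higher and 1 lower in soleus, beside 17% of all genes called higher and 32.9% called in either direction. They included Cidea at 3.99 ± 0.29 (SE), Dgat2 at 2.04 ± 0.23, G0s2, an inhibitor of lipolysis, at 1.89 ± 0.53, and the glycerol phosphate enzyme Gpd1 at -3.47 ± 0.23. Muscle fibres also express several of these genes. Of 8 endothelial genes 3 were higher in soleus: Cldn5 (0.96 ± 0.34), Vwf (0.81 ± 0.26) and Pecam1 (0.62 ± 0.16). Their summed level was 182 to 298 CPM in soleus and 154 to 219 CPM in plantaris, and their part in the Fabp4 difference was not tested. Fibro-adipogenic progenitor genes had 0 members called between the sedentary muscles.

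Young soleus and the libraries labelled young plantaris, whose myosins are alike, were also set side by side. In sedentary libraries 0 of the 8 markers passed edgeR's test, beside 3.26% of 15132 genes, although Fabp4 had an unadjusted p of 0.00388 and DESeq2 and limma each called it. Fabp4 was higher in all 4 soleus libraries (0.47 ± 0.14, SE; edgeR adjusted p = 0.0731), as were 10.2% of genes. Cidec was at 0.00069 ± 0.20 and Plin1 at -0.04 ± 0.33. In PoWeR libraries 0 of the 8 passed, beside 2.08% of genes, with 0 at an unadjusted p under 0.05 and 0 by DESeq2 or limma, and the values ran from -0.16 ± 0.33 for Plin1 to 0.27 ± 0.39 for Lep.

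Because the markers vary together, each was also divided by Adipoq in the same library, a measure chosen after seeing the data. Of the 28 differences between PoWeR and sedentary that this gave (7 genes in 4 comparisons), the smallest Benjamini-Hochberg adjusted p by exact two-sided permutation test was 0.742. The smallest unadjusted p was that of Lep relative to Adipoq in the libraries labelled young plantaris. Its geometric mean ratio was 0.223 with PoWeR and 0.332 sedentary in aged soleus (exact p = 0.143), and 0.0952 and 0.221 in aged plantaris (exact p = 0.0952). In young soleus it was 0.239 and 0.363 (exact p = 0.229), and in the libraries labelled young plantaris 0.228 and 0.415 (exact p = 0.0571). The geometric mean was lower with PoWeR in each of these comparisons, also with any 1 library left out, but the groups overlapped in each. The smallest p that the design allows is 0.00794 for 4 against 5 libraries and 0.0286 for 4 against 4.

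In aged plantaris PoWeR replicate 12, where Adipoq was at 91.5 CPM, the ratio of Lep to Adipoq was the smallest of all libraries except PoWeR replicate 14. Fabp4 relative to Adipoq was 7.45 with PoWeR and 9.26 sedentary in young soleus (exact p = 0.371). Pparg relative to Adipoq was 0.236 and 0.229 in that comparison (exact p = 0.914).

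**Figure D5:**
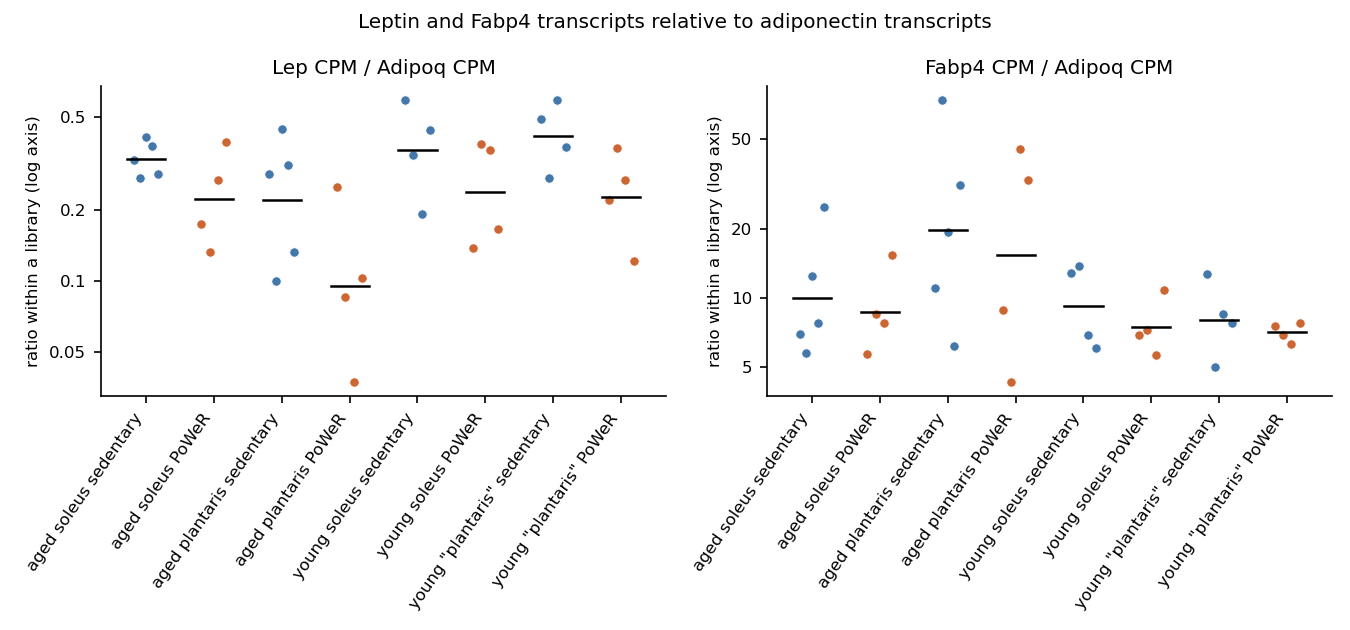
Ratio of Lep CPM to Adipoq CPM (left) and of Fabp4 CPM to Adipoq CPM (right) within each library, on log axes, by group, with sedentary libraries in blue, PoWeR libraries in orange and black lines for geometric means. The Lep ratio has a lower geometric mean with PoWeR in each pair of groups, for example 0.228 against 0.415 in the libraries labelled young plantaris, with overlap between the points.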

How the data were processed

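The deposited table holds expected counts per gene for all 34 libraries, made by the authors. Per the submitters' processing notes, the tools named are STAR 2.7.3a, Partek and DESeq2 and the build is mm10, with no role given for each. Of the deposited values 26.7% were not whole, and they were rounded for the tests. The smallest sum of a gene over all libraries was 10, and 0 sample columns had no match to a label. Counting that ignores strand would mix reads of overlapping genes, and whether strand was used is not given in the sources used here.

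Counts were normalized with TMM, filtered with filterByExpr (minimum count 10, minimum total 15) and tested with edgeR 4.0.16 quasi-likelihood fits in R 4.3.3, one fit each for soleus, plantaris, aged and young libraries, with Benjamini-Hochberg adjustment over all genes tested. The fits were tested on simulated data. Descriptions used Python 3.11.15, pandas 2.3.3 and scipy 1.17.1, and log2 values used a pseudocount of 0.5 CPM. Exon lengths came from GENCODE M21, as the union of the exons of all transcripts of a gene.

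Alternatives were DESeq2 1.42.0, limma 3.58.1 (voom with quality weights), RLE factors, no filter, only the groups compared, all 34 libraries in one fit, replicate blocks and leaving out libraries. A term for libraries with under 0.7% of counts in an rRNA repeat gene, leaving out aged plantaris sedentary replicates 12 and 13 together, and the ratios to Adipoq were added after seeing the data. Replicates 12 and 13 are the aged sedentary plantaris libraries with counts of the keratinocyte gene Krt5. The members and gene lists were chosen with earlier results of these data known. The genes named are all 8 markers, from each list and comparison up to 4 called genes with the largest change, or up to 2 with the smallest p where none was called, and the 10 genes most like the markers.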

Additional observations from a re-analysis of the deposited data

Results flagged for a closer look

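Groups of 4 or 5 libraries were checked for a single library far from the others, by its gap to the nearest value relative to the range of the group. The check used CPM without a log. Of 64 groups (8 markers in 8 groups) 7 had one. The rule gives about 1 in 20 by chance for normally distributed values. That shape was not shown for these CPM values, so the 7 cannot be set against that rate. The markers vary together, so the 6 in aged plantaris PoWeR replicate 12 are not independent of each other. That library had 91.5 CPM of Adipoq against 1.88 to 10.7 in the other 3 of its group, 43.5 CPM of Plin1 against 1.12 to 3.95, and 515 CPM of Cfd against 16.5 to 48.3. It had 85.9 CPM of Cidec against 2.09 to 5.21, 40.6 CPM of Retn against 1.35 to 5.87, and 392 CPM of Fabp4 against 85.3 to 121. The other was Pparg in the sedentary libraries labelled young plantaris, where replicate 3 had 4.07 CPM against 3.33 to 3.37 in the others.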

How the results depend on the processing

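Of 199 counts of markers called under an alternative, 180 equalled the reported count or stayed within 1.5 times of it, and 19 did not. Most comparisons reported 0 markers called, where the count was kept if it was again 0. The 180 thus says little about how stable the calls are. Of 1592 values of single markers, 1447 kept their direction and side of the threshold, 12 lost a call, 15 gained one and 118 changed sign. Of the 118, 96 had a reported value within its SE, 22 had one beyond it, and 0 had been called. The causes were not tested. Each value below is a log2 fold change or difference.

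Between aged sedentary soleus and plantaris, where 1 marker was called, DESeq2 called 2, limma 3, RLE factors 0 and no filter 0, and leaving out 1 library gave 0 to 2. Between aged and young PoWeR soleus, 3 were called with only the groups compared. Between young sedentary soleus and the libraries labelled young plantaris, DESeq2 and limma called 1 each. Without 1 library the count was 0 to 1 between aged and young sedentary soleus and 0 to 2 between aged PoWeR muscles, where it was 2 without plantaris sedentary replicate 16 and PoWeR replicate 12.

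With limma, training in aged plantaris gave Plin1 -0.37, Cidec -0.15 and Lep -1.14, the aged PoWeR muscle difference Adipoq 1.70, Cfd 1.19, Cidec 1.48, Retn 1.03 and Fabp4 0.52, and the interaction of muscle and training Plin1 0.32, Cidec 0.056, Pparg 0.040 and Lep 0.60. Limma also gave Plin1 -0.099 between ages in sedentary soleus, Cidec 0.097 for the interaction of age and training, and Plin1 0.17 and Cidec -0.044 between young sedentary soleus and the libraries labelled young plantaris. With no filter the aged PoWeR muscle difference of Plin1 was -0.0068 and the young PoWeR one of Cfd -0.00041, and with only the groups compared the young sedentary one of Cidec was -0.013.

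Without those 2 plantaris libraries, training in aged plantaris gave Adipoq -0.54, Plin1 -1.08, Cfd -0.20, Cidec -1.23, Pparg -0.10 and Lep -1.21. The aged PoWeR muscle difference gave Adipoq 1.83, Cfd 1.53, Cidec 1.93, Retn 1.23 and Fabp4 0.70, and the interaction Adipoq 0.45, Plin1 0.93, Cfd 0.47, Cidec 0.81, Pparg 0.21 and Lep 0.49. With the rRNA repeat term, training in the libraries labelled young plantaris gave Cfd 0.38, Cidec 0.0090 and Retn 0.28. The difference of young soleus from those libraries gave Plin1 0.048 and Cidec -0.028 sedentary, and Plin1 0.0011, Cfd -0.42 and Retn -0.44 with PoWeR.

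Leaving out 1 library, training in aged soleus ran from -0.32 to 0.22 for Adipoq, -0.40 to 0.13 for Plin1, -0.0059 to 0.55 for Cfd, -0.13 to 0.47 for Retn, -0.26 to 0.016 for Fabp4 and -0.027 to 0.19 for Pparg. In aged plantaris it ran from -0.30 to 2.61 for Adipoq, -0.88 to 2.01 for Plin1, -0.93 to 2.35 for Cidec and -0.93 to 1.06 for Lep, and in the libraries labelled young plantaris from -0.47 to 0.13 for Cfd. Age in sedentary soleus ran from -0.016 to 0.52 for Adipoq, -0.15 to 0.41 for Plin1, -0.48 to 0.16 for Retn, -0.29 to 0.15 for Pparg and -0.11 to 0.51 for Lep. The interaction of age and training ran from -0.56 to 0.070 for Cidec and -0.044 to 0.63 for Lep. That of muscle and training ran from -2.69 to 0.22 for Adipoq, -2.16 to 0.72 for Plin1, -2.59 to 0.21 for Cfd, -2.76 to 0.52 for Cidec, -0.32 to 0.090 for Pparg and -1.78 to 0.21 for Lep. The aged PoWeR muscle difference ran from -0.90 to 1.83 for Adipoq, -0.36 to 2.39 for Plin1, -1.27 to 1.53 for Cfd, -1.22 to 1.93 for Cidec, -1.18 to 1.23 for Retn and -0.34 to 0.71 for Fabp4. Against the libraries labelled young plantaris, young sedentary soleus ran from -0.33 to 0.25 for Plin1, -0.15 to 0.12 for Cidec, -0.18 to 0.28 for Pparg and -0.18 to 0.40 for Lep. Young PoWeR soleus ran from -0.27 to 0.13 for Cfd, -0.21 to 0.013 for Cidec, -0.0083 to 0.60 for Retn, -0.048 to 0.28 for Pparg and -0.031 to 0.48 for Lep.

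With the replicate block by number, 0 markers were called for training in aged soleus or plantaris. Cfd was -0.066 and Retn -0.27 in soleus, and Adipoq -0.024, Plin1 -0.29, Cidec -0.0031 and Lep -1.52 in plantaris. Deviations of sedentary and PoWeR libraries of the same number correlated with r of -0.11 to 0.07, which does not settle whether they share more than a number. With the replicate block by library name, 2 markers were called between aged sedentary muscles, Fabp4 and Pparg, and 0 between aged PoWeR muscles and for the interaction. Between aged PoWeR muscles that block gave Adipoq 0.84, Cfd 0.54, Cidec 0.62, Retn 0.23 and Fabp4 0.20. Soleus and plantaris libraries of the same name correlated with r of 0.03 to 0.20 among sedentary and 0.12 to 0.19 among PoWeR libraries. These values were not set against libraries of different names, so they cannot decide whether a name marks 1 mouse in either group. Low counts limit Lep in plantaris, with 1 count in PoWeR replicate 14.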
